A study of Mus musculus with 6 samples.

Results

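The 44 genes described here code for the machinery that copies DNA in S phase, from the factors that load the replicative helicase onto origins to those that rebuild chromatin behind the fork. They were taken by name from the deposited table of 17546 genes as a list of replication genes. All 44 were in the table, and all 44 passed the filter on low counts and were tested. The libraries were bulk RNA-seq of ILC2s (group 2 innate lymphoid cells), which lack antigen receptors and secrete the cytokines of type 2 immunity. One group held 3 libraries of ILC2s exposed to 10 µM Yoda1 for 24 h, numbered Yoda1 4 to 6, and the other held 3 libraries exposed to DMSO over the same time, numbered DMSO 1 to 3. The cells of both groups came from lungs of BALB/c mice given 3 intranasal injections of 1 µg of IL-33, an alarmin that activates ILC2s, and both groups were kept in medium with 10 ng/mL of IL-2 and as much IL-7. The labels name no gene deletion, and age and sex were not given in the sources used here. Yoda1 is a chemical agonist of PIEZO1, a cation channel that opens under membrane stretch and admits calcium, so the comparison asks how transcripts of the replication machinery differ after a day of chemical activation of that channel.

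A replication origin is licensed in G1, when the origin recognition complex, CDC6 and CDT1 load the MCM ring as an inactive double hexamer. At the start of S phase CDC45 and GINS join the ring and turn it into the active helicase, and polymerase alpha with its primase lays down the first primer. Polymerases epsilon and delta then extend the strands on the PCNA clamp, FEN1 and LIG1 join the Okazaki fragments, and CAF-1, UHRF1 and DNMT1 restore nucleosomes and DNA methylation. Transcripts of many of these proteins are made mostly from late G1 into S phase under E2F transcription factors, so in lymphocytes they are commonly read as marks of a cycling population. In bulk libraries, fewer cells of a kind and less RNA in each cell cannot be told apart.

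The libraries held 15355158 to 17322050 counts in the Yoda1 group and 14214048 to 31627519 in the DMSO group. All 15 ILC2 markers listed were tested. Il5 alone, the gene of the cytokine IL-5, gave 7024, 6935 and 8258 CPM (counts brought to an equal total in each library) in Yoda1 4, 5 and 6, against 5343, 5936 and 5898 CPM in DMSO 1, 2 and 3. Its log2 fold change of Yoda1 over DMSO was 0.38 (SE 0.08). It was not called (adjusted p = 0.0709, edgeR quasi-likelihood test). The other 14 markers summed to 5829, 5398 and 5132 CPM in Yoda1 libraries, against 6119, 6189 and 6160 CPM in DMSO libraries. Among them the costimulatory receptor gene Icos (-0.89, SE 0.08, adjusted p = 0.00423) and the IL-2 receptor gene Il2ra (-0.67, SE 0.08, adjusted p = 0.00707) fell, and the arginase gene Arg1 rose (0.93, SE 0.11, adjusted p = 0.00868; log2 fold changes of Yoda1 over DMSO, edgeR quasi-likelihood test). The Icos call was lost without DMSO 3 (adjusted p = 0.0522), that of Il2ra without DMSO 1 (0.0505), DMSO 2 (0.0617) or DMSO 3 (0.0711), and that of Arg1 without DMSO 2 (0.0747), DMSO 3 (0.0606) or Yoda1 5 (0.0614). Thy1, named after its values were seen, was low, at 0.115 to 1.24 CPM in Yoda1 libraries and 1.48 to 2.89 CPM in DMSO libraries. It was not called (adjusted p = 0.517, edgeR quasi-likelihood test).

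The sum of 10 airway and alveolar epithelial markers was 59.7, 55.2 and 76.1 CPM in Yoda1 4, 5 and 6, against 91.6, 429 and 412 CPM in DMSO 1, 2 and 3. DMSO 2 and DMSO 3 stood apart, mainly through the club cell secretoglobin gene Scgb1a1, which reached at most 0.0585 CPM in Yoda1 libraries and was at 0 in DMSO 1, 302 CPM in DMSO 2 and 293 CPM in DMSO 3. The labels of DMSO 2 and DMSO 3 also share a number, as do those of Yoda1 4 and Yoda1 5. The meaning of that number is not given. The sum of 5 NK cell and ILC1 markers, almost all of it Gzma and Gzmb, was 44.3 to 62.0 CPM in Yoda1 libraries against 155 to 211 CPM in DMSO libraries, while Eomes and Tbx21 were under 0.819 CPM in all 6. The granzyme genes Gzmb (-1.94, SE 0.19, adjusted p = 0.00452) and Gzma (-1.93, SE 0.25, adjusted p = 0.00887, edgeR quasi-likelihood test) were called lower. The Gzmb call was lost without DMSO 3 (adjusted p = 0.0606), and that of Gzma without DMSO 2 (0.0747), DMSO 3 (0.0740) or Yoda1 5 (0.0713). Sums of the B cell, T cell, macrophage, neutrophil, mast cell and stromal lists stayed under 41.4 CPM in every library, and the part of these transcripts in the results was not tested. Between DMSO 1 alone and the 3 Yoda1 libraries, the median log2 fold change of the replication genes was -0.27. The labels do not say whether libraries of one group are separate mice or cultures. The p-values therefore cover only the spread from library to library, which may be technical.

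The replication transcripts made up a smaller part of the RNA in the Yoda1 libraries, in which 43 of the 44 genes had a lower mean. Their summed share of all counts was 0.661, 0.601 and 0.597% in Yoda1 4, 5 and 6, against 0.762, 0.765 and 0.787% in DMSO 1, 2 and 3. Each Yoda1 library lay below each DMSO library. The median log2 fold change of Yoda1 over DMSO was -0.30 over the 44 genes and 0.011 over all 13325 genes tested. Only the DNA ligase gene Lig1 was past the threshold of an adjusted p of 0.05 (edgeR quasi-likelihood test, Benjamini-Hochberg adjustment over all genes tested). That is 2.27% of the 44 genes, where 0.923% of all genes tested were called lower. No replication gene was called higher, and 0.57% of all genes tested were.

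Weaker criteria took in more of the genes. An unadjusted p under 0.05 with a lower mean was found for 17 of the 44, or 38.6%, against 7.11% of all genes tested, and no replication gene had such a p with a higher mean. Every Yoda1 library lay below every DMSO library for 15 of the 44, or 34.1%, against 12% of all genes tested, and the reverse held for none. DESeq2, another count test, called 13 of the 44 lower and none higher, where it called 3.39% of all genes tested lower. The sizes were modest: the lowest log2 fold change was -0.95 for Pola1, and the only positive one was 0.16 for the clamp loader gene Rfc3.

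**Figure D1:**
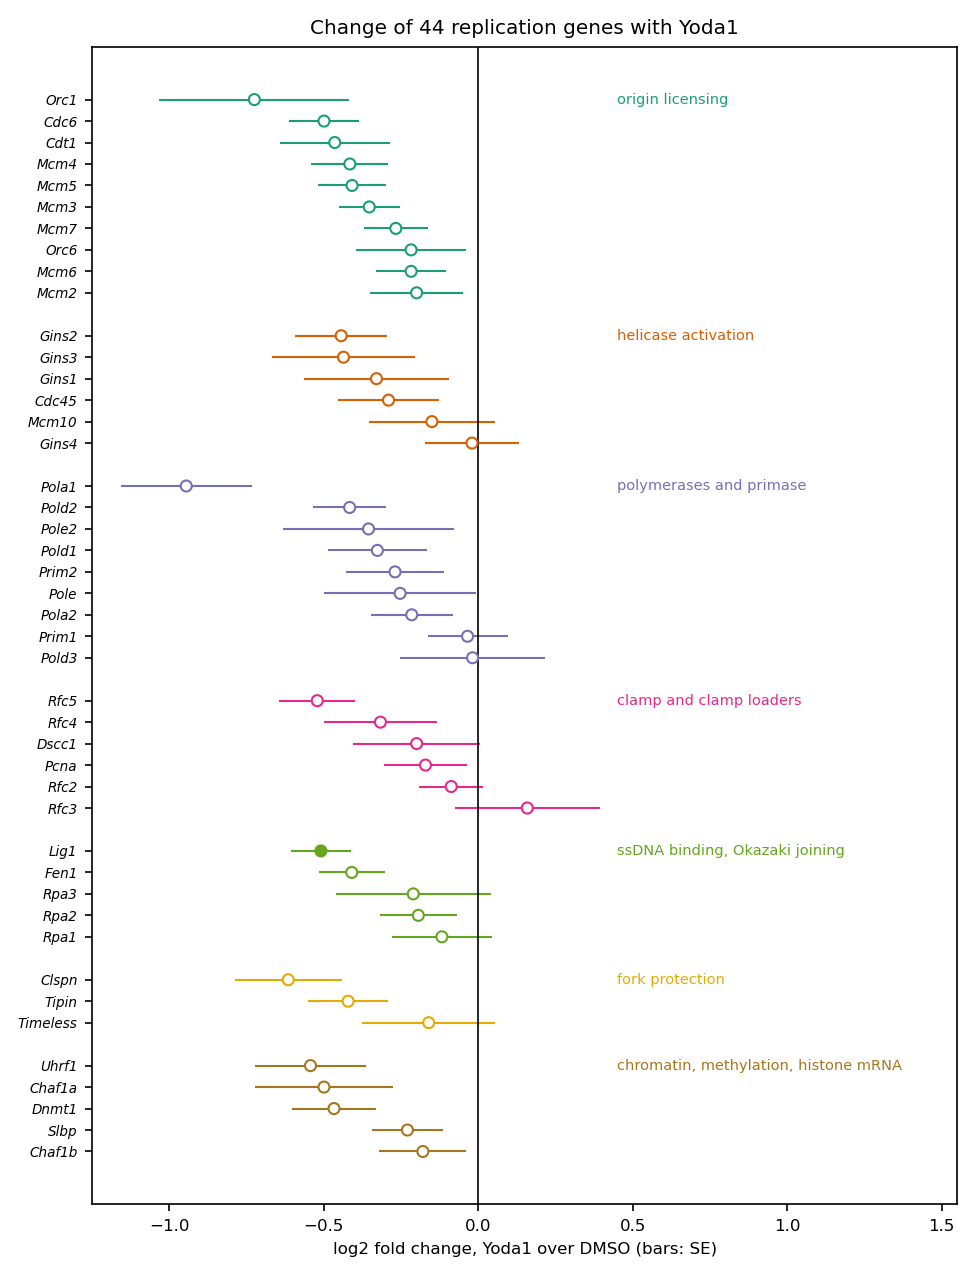
Log2 fold change of Yoda1 over DMSO for each of the 44 replication genes, grouped by role and ordered by size within a role; bars are standard errors, the filled point is past the adjusted p of 0.05, and open points are not. All points but Rfc3 (0.16) lie left of 0, Pola1 (-0.95) is farthest left, and Lig1 (-0.51) is the filled point.

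The plot of log2 fold changes by role shows that the shift was spread over the roles and was not carried by a few genes, since the median was below 0 in each of the 7 roles. It was -0.47 for chromatin assembly, methylation and histone mRNA, -0.42 for fork protection, -0.38 for origin licensing, -0.31 for helicase activation, -0.27 for polymerases and primase, -0.21 for single-strand binding and Okazaki fragment joining, and -0.19 for the clamp and its loaders. No difference between roles was tested.

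**Figure D2:**
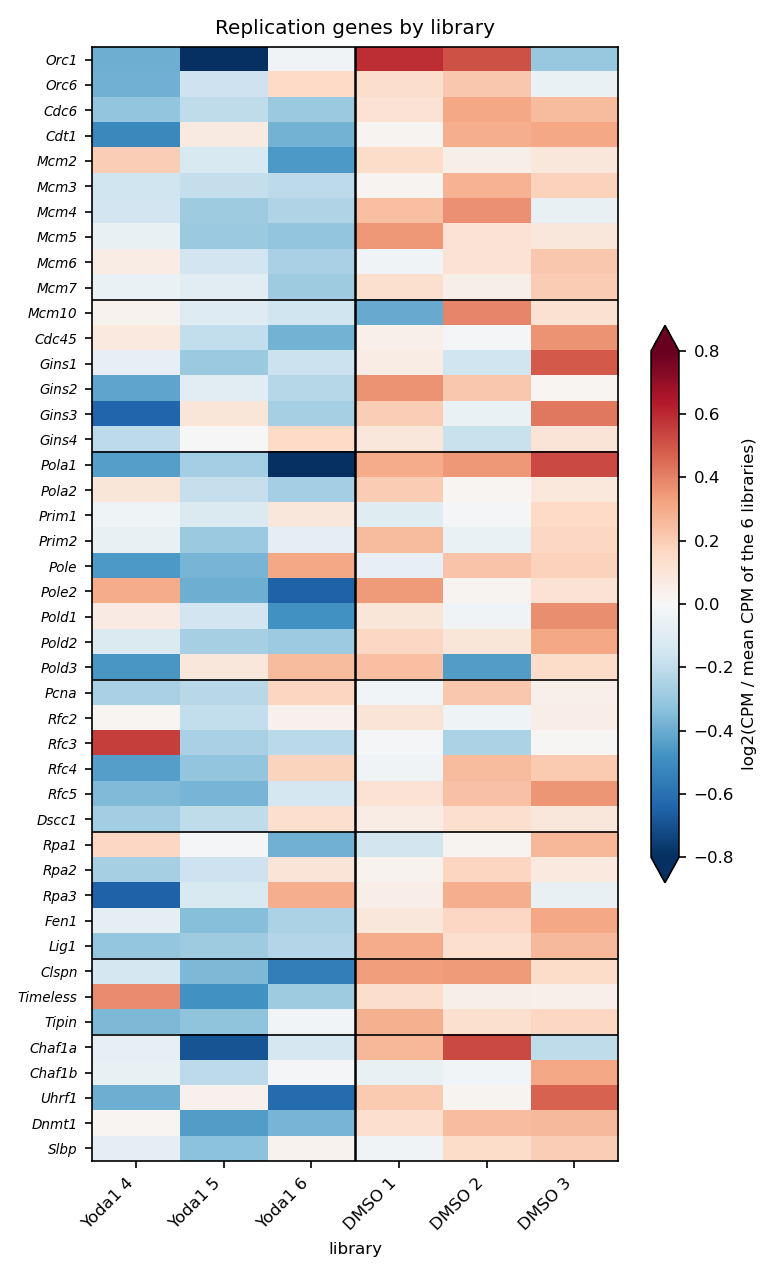
Level of each replication gene in each library, as log2 of its CPM over the mean CPM of the 6 libraries; black lines part the roles and the 2 groups. The Yoda1 columns are mostly blue (below the mean of the 6) and the DMSO columns mostly red, with exceptions such as Rfc3 and Timeless in Yoda1 4 and Orc1 in DMSO 3.

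No single Yoda1 library carried the lower levels, as the map of levels by library shows. Against the DMSO mean, the median log2 difference over the 44 genes was -0.29 in Yoda1 4, -0.31 in Yoda1 5 and -0.37 in Yoda1 6. Yoda1 4 was the lowest of its group for 15 genes, Yoda1 5 for 14 and Yoda1 6 for 15. Yoda1 4 was the highest of its group for 21, Yoda1 6 for 17 and Yoda1 5 for 6.

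Promoter sequences, taken from the RefSeq table on GRCm38.p6, were at hand for 35 of the 44 genes and span 250 bases before to 50 bases after the annotated start. Some genes have several promoters, and a gene was counted for a word when any of them held it. An E2F word (TTTCCCGC, TTTCGCGC, TTTGCCGC or TTTGGCGC, on either strand) was in the promoters of 17 of these 35 genes, or 48.6%, against 2.6% of all 27025 genes with a promoter and 4.97% of the 9294 tested genes with one. Among licensing genes it was in 7 of 9. In lists described further below, 38.9% of the E2F and RB family genes with a promoter and 25% of the other replication factors had it. The cell cycle homology element (CHR; TTTGAA or TTCGAA), a mark of genes expressed in G2 and mitosis, was in 8 of the 35, or 22.9%, against 21.7% of all genes with a promoter and 16.7% of the tested ones, whereas a list of 25 mitosis genes had it in 18 of the 22 with a promoter and an E2F word in none. CCAAT boxes were in 65.7% of the replication genes, 81.8% of the mitosis genes, 41.1% of all genes with a promoter and 43.5% of the tested ones. The stretches below carry the E2F word in a licensing factor, a helicase subunit, the gene with the lowest log2 fold change, the called gene and the only gene with a higher mean, with the CHR word of the mitotic kinase gene Plk1 for contrast. Each is given from 5′ to 3′ on the gene's own strand, with the E2F or CHR letters in capitals.
Cdc6 (chr11:98908002-98908031, plus strand): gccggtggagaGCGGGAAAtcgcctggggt
Mcm5 (chr8:75109259-75109508, plus strand): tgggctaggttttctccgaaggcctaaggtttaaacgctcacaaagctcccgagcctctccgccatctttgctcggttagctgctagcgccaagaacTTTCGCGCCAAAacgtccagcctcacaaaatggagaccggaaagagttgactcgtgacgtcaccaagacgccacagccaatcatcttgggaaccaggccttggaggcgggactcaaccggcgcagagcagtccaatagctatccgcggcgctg
Pola1 (chrX:93632156-93632405, minus strand): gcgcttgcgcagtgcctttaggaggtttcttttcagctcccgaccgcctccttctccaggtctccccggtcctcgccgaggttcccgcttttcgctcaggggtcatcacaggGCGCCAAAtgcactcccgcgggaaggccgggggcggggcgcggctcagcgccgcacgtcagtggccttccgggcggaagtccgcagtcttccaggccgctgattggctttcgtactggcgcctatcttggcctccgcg
Lig1 (chr7:13278841-13278870, plus strand): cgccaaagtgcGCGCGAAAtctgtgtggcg
Rfc3 (chr5:151651195-151651224, minus strand): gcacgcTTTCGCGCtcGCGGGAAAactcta
Plk1 (chr7:122159453-122159482, plus strand): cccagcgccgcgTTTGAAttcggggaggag

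In Mcm5 the capitals are an overlap of TTTCGCGC on the gene's strand with TTTGGCGC on the other, and in Rfc3 they are separate words on each strand. The words in Cdc6, Pola1 and Lig1 lie on the other strand, and those of Cdc6 and Pola1 begin 138 bases before the start. Lig1 has 3 promoters, and only the promoter shown, which lies inside the annotated gene, held an E2F word, 26 bases after its start. The median log2 fold change was -0.44 over the 17 replication genes with an E2F word and -0.21 over the 18 with a promoter but without one, with ranges of -0.95 to 0.16 and -0.52 to -0.035. The ranges overlap, Rfc3 has the word and Rfc5 does not, and the difference was not tested.

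In origin licensing, the largest role, 5 of 10 genes had every Yoda1 library below every DMSO library, against 12% of all genes tested. An unadjusted p under 0.05 with a lower mean was found for 7 of the 10, against 7.11% of all genes tested. None passed the adjusted threshold. DESeq2 called Cdc6, Mcm3, Mcm4 and Mcm5, where it called 3.39% of all genes tested lower. Cdc6, the ATPase that helps the origin recognition complex load the helicase, had 99.7, 108 and 101 CPM in Yoda1 4, 5 and 6, against 135, 154 and 148 CPM in DMSO 1, 2 and 3. The groups did not overlap, and the Yoda1 libraries were close together. Its log2 fold change was -0.50 (SE 0.11, adjusted p = 0.075, edgeR quasi-likelihood test). The gene of its partner Cdt1, the loading factor that geminin blocks, had 63.3, 94.9 and 69.7 CPM in Yoda1 libraries against 91.9, 111 and 112 CPM in DMSO libraries, a log2 fold change of -0.46 (SE 0.18, adjusted p = 0.275). Yoda1 5 lay above DMSO 1, so the groups overlapped.

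The origin recognition complex genes on the list varied more between libraries. Orc1, the subunit whose protein is made and degraded within each cycle in human cells, had 24.9, 16.9 and 32 CPM in Yoda1 libraries against 49.2, 46.4 and 26.4 CPM in DMSO libraries. DMSO 3 lay within the Yoda1 range. The log2 fold change of -0.73 (SE 0.31) was the second lowest of all 44 genes, yet its adjusted p was 0.325. Orc6, the smallest subunit, averaged 55.7 ± 10.6 CPM with Yoda1 and 64.7 ± 6.03 CPM with DMSO (SD, n = 3 each), and its libraries overlapped.

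Of the MCM helicase, 4 of 6 subunit genes had every Yoda1 library below every DMSO library, against 12% of all genes tested. Mcm5 had 527, 447 and 440 CPM in Yoda1 4, 5 and 6, against 698, 595 and 585 CPM in DMSO 1, 2 and 3. Its log2 fold change was -0.41 (SE 0.11, adjusted p = 0.118, edgeR quasi-likelihood test). Mcm3 had 270, 264 and 261 CPM with Yoda1 against 307, 366 and 342 CPM with DMSO, the tightest Yoda1 values of the ring (-0.35, SE 0.10, adjusted p = 0.132). Mcm4 had 224, 205 and 211 CPM with Yoda1 against 295, 321 and 239 CPM with DMSO (-0.42, SE 0.13, adjusted p = 0.162), and DMSO 3 came nearest to the Yoda1 range. Mcm7 had 266, 258 and 226 CPM with Yoda1 against 301, 284 and 317 CPM with DMSO (-0.27, SE 0.10, adjusted p = 0.28). Mcm6 (-0.22) and Mcm2 (-0.20) overlapped: Mcm2 reached 460 CPM in Yoda1 4, above all 3 DMSO libraries at 414 to 444 CPM, while Yoda1 6 was at 292 CPM.

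The subunits of the MCM ring, which enter it in equal numbers, did not have equal transcript levels per exon length. That length joins the exons of all annotated transcripts of a gene and can exceed that of the transcript made. Ranks between genes by level per length, here and below, are uncertain for that reason. Per kilobase of exon, their mean levels ran from 59.5 CPM with Yoda1 and 79.3 CPM with DMSO for Mcm4 to 136 CPM with Yoda1 and 181 CPM with DMSO for Mcm5. Mcm6 (83.3 and 96.8), Mcm7 (84.4 and 102) and Mcm3 (87.4 and 112) lay close together in CPM per kilobase with Yoda1 and with DMSO, and Mcm2 was next at 111 and 127.

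**Figure D3:**
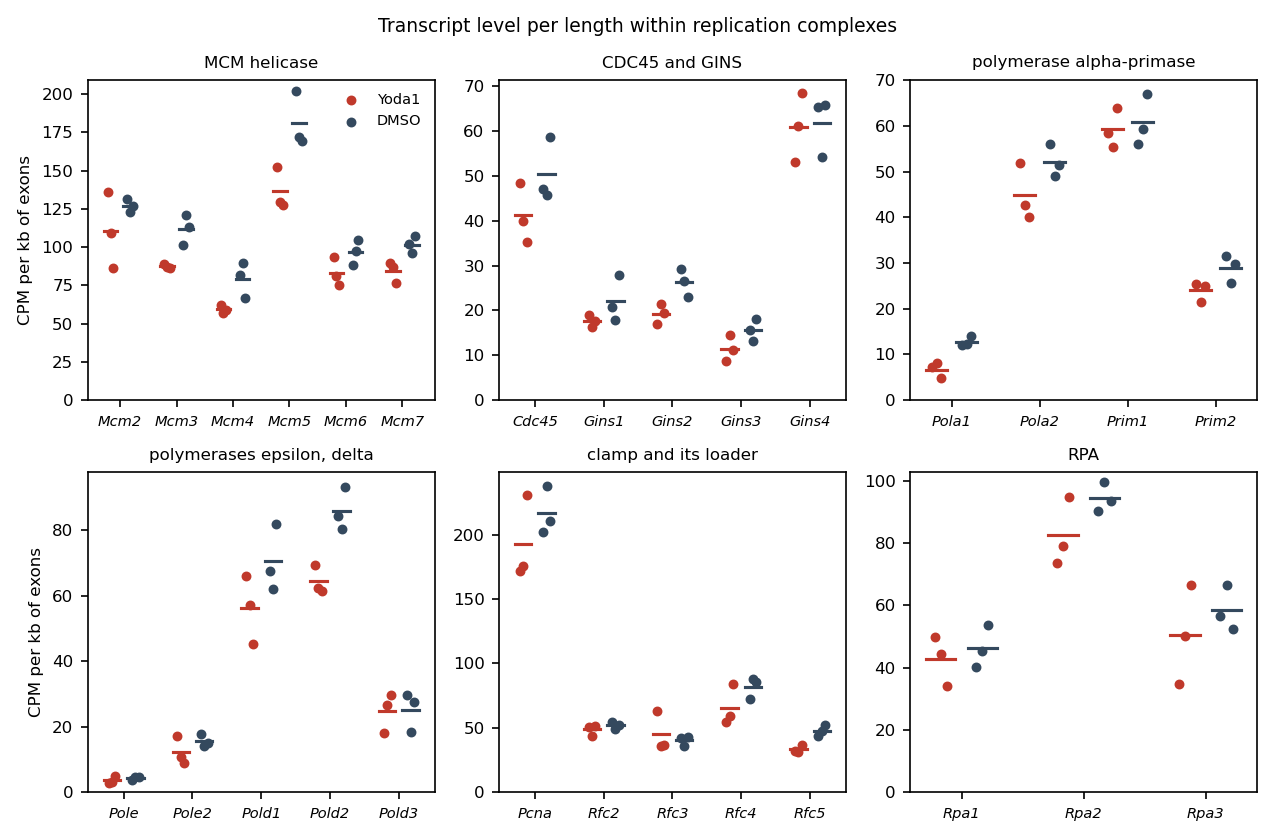
Transcript level per exon length (CPM per kb) of the subunit genes of 6 complexes; each point is a library, each short line the mean of 3 libraries, Yoda1 in red and DMSO in dark blue. In each panel the subunit means span a wider range than any 1 subunit differs between treatments, although neighbours such as Mcm6, Mcm7 and Mcm3 (83.3, 84.4 and 87.4 with Yoda1) lie closer together than that.

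Helicase activation held 6 genes, all with a lower mean. Of these, 1 (Gins2) had an unadjusted p under 0.05, against 7.11% of all genes tested with such a p and a lower mean. None passed the adjusted threshold by edgeR or by DESeq2. Gins2, a subunit of the GINS complex that joins the ring, had 66.4, 83.7 and 75.7 CPM in Yoda1 libraries against 114, 103 and 89.7 CPM in DMSO libraries. The groups came close but did not overlap (-0.44, SE 0.15, adjusted p = 0.208). Over 50% of the exon bases of Gins2 are shared with Gse1 on the other strand, which had 6.73 ± 2.39 CPM with Yoda1 and 6.69 ± 1.25 CPM with DMSO. Gins3 (-0.44), Gins1 (-0.33) and Cdc45 (-0.29), which act in the same step, overlapped between groups. Mcm10, which acts when the helicase starts, stood at -0.15 with DMSO 1 its lowest library of all 6 (50.8 CPM). Gins4 was level, at 82.0 ± 10.4 CPM with Yoda1 and 83.3 ± 8.90 CPM with DMSO (-0.020, SE 0.15). The plot of levels within complexes shows that Gins4 was also the most abundant GINS transcript per length, at 60.8 CPM per kilobase with Yoda1 and 61.7 with DMSO, against 11.5 and 15.6 for Gins3.

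Among 9 polymerase and primase genes, 3 had every Yoda1 library below every DMSO library (Pola1, Prim2 and Pold2), against 12% of all genes tested. Pola1 had the lowest log2 fold change of the whole list. Pola1 codes for the catalytic subunit of polymerase alpha, which extends the RNA primer. It had 38.3, 43.0 and 25.4 CPM in Yoda1 4, 5 and 6, against 64.0, 66.3 and 75.1 CPM in DMSO 1, 2 and 3. The gap between the groups was wider than the range within either group, and Yoda1 6 was the lowest. The log2 fold change was -0.95 (SE 0.21), and the adjusted p was 0.075 by edgeR's quasi-likelihood test and 0.00094 by DESeq2. The partners of Pola1 in the same complex differed less: Pola2, the accessory subunit, was at -0.22 (SE 0.13), the primase subunit gene Prim2 at -0.27 (SE 0.16) and the primase catalytic subunit gene Prim1 at -0.035 (SE 0.13). Per kilobase of exon, Pola1 averaged 6.65 CPM with Yoda1 and 12.8 with DMSO, below Prim2 (24.0 and 28.9), Pola2 (44.9 and 52.1) and Prim1 (59.3 and 60.8).

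Of the polymerases that copy the bulk of the genome, only Pold2 had separate groups. Pold2, an accessory subunit of polymerase delta, had 114, 103 and 101 CPM with Yoda1 against 139, 132 and 154 CPM with DMSO (-0.42, SE 0.12, adjusted p = 0.14). Its catalytic partner Pold1 averaged 194 ± 36.2 CPM with Yoda1 and 244 ± 35.3 CPM with DMSO (SD, n = 3 each), and DMSO 2 lay within the Yoda1 range. Pold3, another accessory subunit, was at -0.018 (SE 0.24), with 56.5 CPM in Yoda1 4 and 57.2 CPM in DMSO 2 as the low library of each group. Pole, the catalytic subunit of polymerase epsilon, and its partner Pole2 had log2 fold changes of -0.25 and -0.36 with overlapping libraries. Pole had the lowest level per length of the 44 genes, at 3.76 CPM per kilobase with Yoda1 and 4.48 with DMSO.

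The clamp and clamp loader genes had the median nearest to 0 of the 7 roles. Pcna, the sliding clamp, had the highest level per length of the 44, at 193 CPM per kilobase with Yoda1 and 217 with DMSO. Its libraries were at 260, 266 and 350 CPM with Yoda1 against 306, 361 and 320 CPM with DMSO, so Yoda1 6 lay inside the DMSO range (-0.17, SE 0.14, adjusted p = 0.618). Pcna has annotated processed pseudogenes, Pcna-ps1 and Pcna-ps2, whose reads a counter may divide with it. Rfc5 was the exception in this role. This small subunit of the clamp loader had 103, 102 and 119 CPM in Yoda1 4, 5 and 6, against 143, 154 and 168 CPM in DMSO 1, 2 and 3, with no overlap (-0.52, SE 0.12, adjusted p = 0.0827, edgeR quasi-likelihood test).

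The other subunits of the loader had overlapping groups, and their difference from Rfc5 was not tested. Rfc4 was at -0.32 and Rfc2 at -0.088, and Dscc1, a part of the alternative loader used in sister chromatid cohesion, was at -0.20. Rfc3 had 82.9, 47.3 and 48.6 CPM with Yoda1 against 55.8, 47.4 and 57.0 CPM with DMSO. Its higher Yoda1 mean came from Yoda1 4 alone: the log2 fold change was 0.16 (SE 0.23), and -0.16 without Yoda1 4.

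Lig1, which seals the nicks between Okazaki fragments, fell with Yoda1. It had 187, 191 and 198 CPM in Yoda1 4, 5 and 6, against 286, 255 and 279 CPM in DMSO 1, 2 and 3. Both groups were tight, at 192 ± 5.25 CPM with Yoda1 and 273 ± 16.3 CPM with DMSO (SD, n = 3 each), and they did not overlap. The log2 fold change was -0.51 (SE 0.10), a level 29.8% lower, with an adjusted p of 0.045 by edgeR's quasi-likelihood test and 3.06e-05 by DESeq2. The call by edgeR lay close to the threshold and was lost without DMSO 1 (adjusted p = 0.175), DMSO 2 (0.151), DMSO 3 (0.196), Yoda1 4 (0.0879) or Yoda1 5 (0.166), while without Yoda1 6 it was 0.0453. It was also lost with no filter on low counts (0.0582), with a term for the label suffix (0.357), with libraries that share a label number summed (0.289) and with DMSO 1 as the only control (0.785). Over all 17 alternatives the log2 fold change itself ran from -0.58 to -0.47.

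Fen1, the nuclease that trims the flap ahead of LIG1, had 319, 266 and 283 CPM in Yoda1 libraries against 358, 378 and 417 CPM in DMSO libraries. The groups did not overlap (-0.41, SE 0.11, adjusted p = 0.111 by edgeR and 0.00854 by DESeq2). An antisense gene, Gm10143, covers over 50% of its exon bases but reached only 1.62 ± 0.575 CPM with Yoda1 and 3.81 ± 0.655 CPM with DMSO. The subunits of RPA, the single-strand binding complex, were nearer to 0, at -0.12 for Rpa1, -0.19 for Rpa2 and -0.21 for Rpa3, and the libraries of each overlapped.

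Of the 3 fork protection genes none passed the threshold by edgeR. An unadjusted p under 0.05 with a lower mean was found for 2, against 7.11% of all genes tested. DESeq2 called Clspn and Tipin, where it called 3.39% of all genes tested lower. Clspn codes for claspin, the adaptor that links a stalled fork to the kinase CHK1, and had 40.2, 34.5 and 30.2 CPM in Yoda1 4, 5 and 6, against 55.7, 56.0 and 49.0 CPM in DMSO 1, 2 and 3. The groups did not overlap (-0.62, SE 0.17, adjusted p = 0.136, edgeR quasi-likelihood test). Tipin had 109, 111 and 137 CPM with Yoda1 against 170, 152 and 156 CPM with DMSO, again with no overlap (-0.42, SE 0.13, adjusted p = 0.17). Its binding partner Timeless had 110, 60.6 and 69.6 CPM with Yoda1 against 93.5, 87.5 and 87.3 CPM with DMSO, and Yoda1 4 was the highest of all 6 libraries (-0.16, SE 0.21, adjusted p = 0.79). Without Yoda1 4 the log2 fold change was -0.46 for Timeless and -0.36 for Tipin, and without Yoda1 5 it was 0.0064 for Timeless. The difference between these partners was not tested.

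Dnmt1 and Uhrf1 work together, since UHRF1 binds hemimethylated DNA behind the fork and brings the maintenance methyltransferase DNMT1 to it. Dnmt1 had 253, 183 and 193 CPM in Yoda1 4, 5 and 6, against 275, 297 and 299 CPM in DMSO 1, 2 and 3. Yoda1 4 came near the DMSO libraries without overlapping them (-0.47, SE 0.14, adjusted p = 0.146), and without Yoda1 4 the gene passed the threshold (adjusted p = 0.0414, edgeR quasi-likelihood test). By the same test Dnmt1 did not pass without DMSO 1 (0.288), DMSO 2 (0.374), DMSO 3 (0.362), Yoda1 5 (0.351) or Yoda1 6 (0.207). Uhrf1 had 197, 264 and 168 CPM with Yoda1 against 299, 262 and 357 CPM with DMSO (-0.54, SE 0.18, adjusted p = 0.203). The overlap was narrow, between Yoda1 5 and DMSO 2.

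The CAF-1 genes code for the histone chaperone that deposits new histones at the fork. Chaf1a averaged 77.5 ± 17.1 CPM with Yoda1 and 109 ± 26.9 CPM with DMSO (-0.50, SE 0.22, adjusted p = 0.352), and DMSO 3, at 81.1 CPM, lay within the Yoda1 libraries. Chaf1a shares over 50% of its exon bases with Ubxn6 on the other strand, at 58.0 ± 9.12 CPM with Yoda1 and 43.6 ± 13.3 CPM with DMSO; the strand setting of the counting is not given, so reads of this pair may be mixed. Chaf1b was at -0.18. Slbp, which binds the stem-loop that replication-dependent histone mRNAs carry in place of a poly(A) tail, was at 400 ± 49.3 CPM with Yoda1 and 469 ± 37.5 CPM with DMSO (-0.23, SE 0.11, adjusted p = 0.403). Per length it stood near the top of the list, at 151 CPM per kilobase with Yoda1 and 177 with DMSO.

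The histone genes that SLBP serves did not move as one. Histone genes listed by symbol took 0.107, 0.114 and 0.139% of counts in Yoda1 4, 5 and 6, against 0.196, 0.180 and 0.175% in DMSO 1, 2 and 3, and every Yoda1 library was below every DMSO library. Of 61 such genes 52 were tested, with a median log2 fold change of -0.63. Past the threshold 1 was lower and 3 higher, where 0.923% of all genes tested were lower and 0.57% higher. DESeq2 called 7 of the 52 lower and 3 higher, and 3.39% of all genes tested lower. Over the whole table DESeq2 also called more genes higher than edgeR did, as given further below. Its 3 higher calls are therefore not to be set against the 0.57%. H2ac18 (1.31, SE 0.19), H2bc4 (1.29, SE 0.17) and H1f2 (1.08, SE 0.16) rose, with adjusted p of 0.0162, 0.0119 and 0.0163 by edgeR's quasi-likelihood test. Hist1h2ap, named after its values were seen, fell to 532 ± 108 CPM with Yoda1, against 1015 ± 57.2 CPM with DMSO (-0.93, SE 0.14, adjusted p = 0.0174). This gene alone held a large part of the summed histone counts, so the lower share is not a fall of the whole family alike. Of the 52 tested, 36 had a negative log2 fold change and 16 a positive one. Histone copies are near identical, so reads may be divided between them and single genes are uncertain. The list includes the replication-independent H1f0, and the way RNA was selected for the libraries was not given. Without DMSO 1, DMSO 2, DMSO 3 or Yoda1 5, none of the 52 was past the threshold in either direction.

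Further replication factors outside the list had a median nearer to 0, at -0.15, with 2 lower and 0 higher past the threshold among 40 tested. Beside the calls here and in the paragraphs that follow, 0.923% of all genes tested were called lower and 0.57% higher. No difference between lists was tested here or in those paragraphs. Top2a, the topoisomerase that untangles replicated DNA, fell to 205 ± 25.9 CPM with Yoda1, against 378 ± 10.4 CPM with DMSO (-0.88, SE 0.11, adjusted p = 0.00887). Pclaf, a PCNA-binding factor, fell to 178 ± 18.2 CPM, against 275 ± 8.01 CPM with DMSO (-0.63, SE 0.11, adjusted p = 0.0319). Top2a passed in the fits without Yoda1 4 (adjusted p = 0.00986) and without Yoda1 6 (0.0163), and not without Yoda1 5 (0.0717), DMSO 1 (0.0596), DMSO 2 (0.0814) or DMSO 3 (0.0795). Pclaf passed only without Yoda1 6 (0.0135), its adjusted p reaching 0.179 without DMSO 2.

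Of 12 genes of deoxynucleotide supply, which makes the building blocks that the polymerases use, 11 had a lower mean, 1 was past the threshold lower and 1 higher, and the median was -0.41. Rrm2, the regulated subunit of ribonucleotide reductase, had 802, 714 and 780 CPM in Yoda1 libraries against 1227, 1363 and 1379 CPM in DMSO libraries, and fell by 0.79 on the log2 scale (SE 0.08, adjusted p = 0.00537, edgeR quasi-likelihood test). Samhd1, the triphosphohydrolase that breaks deoxynucleotides down, went the other way, at 193, 177 and 214 CPM with Yoda1 against 122, 125 and 139 CPM with DMSO, and rose by 0.60 (SE 0.12, adjusted p = 0.0493). The groups of each gene did not overlap. The Samhd1 call was lost in each of the 6 fits that left out a library, with adjusted p from 0.0662 to 0.237, and that of Rrm2 without DMSO 2 (0.0515) or DMSO 3 (0.0606).

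A list of cell cycle regulators had a median below that of the replication genes. It holds regulators of S phase entry and also genes that act later in the cycle, such as Cdk1. Of 27 genes of the E2F and RB family with G1/S cyclins and their kinases, 25 had a lower mean, and the median was -0.49. Past the threshold 2 were lower, against 0.923% of all genes tested, and 0 were higher. The S phase cyclin gene Ccna2 (-0.70, SE 0.10, adjusted p = 0.0152) and Cdk1, a kinase that A and B cyclins activate (-0.71, SE 0.11, adjusted p = 0.0232) fell; both calls were kept in the fits without Yoda1 4 or Yoda1 6 and lost in those without Yoda1 5, DMSO 1, DMSO 2 or DMSO 3 (adjusted p of 0.0949 to 0.146). The 22 replication checkpoint genes had a median of -0.047 and no call by edgeR in either direction. An unadjusted p under 0.05 with a lower mean was found for 2, or 9.09%, against 7.11% of all genes tested, and with a higher mean for none. DESeq2 called 1 of the 22 lower, where it called 3.39% of all genes tested lower. The lowest p among these genes were those of the CDK inhibitor genes Cdkn2c (-0.82, adjusted p = 0.145) and Cdkn2d (-0.37, adjusted p = 0.28).

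**Figure D4:**
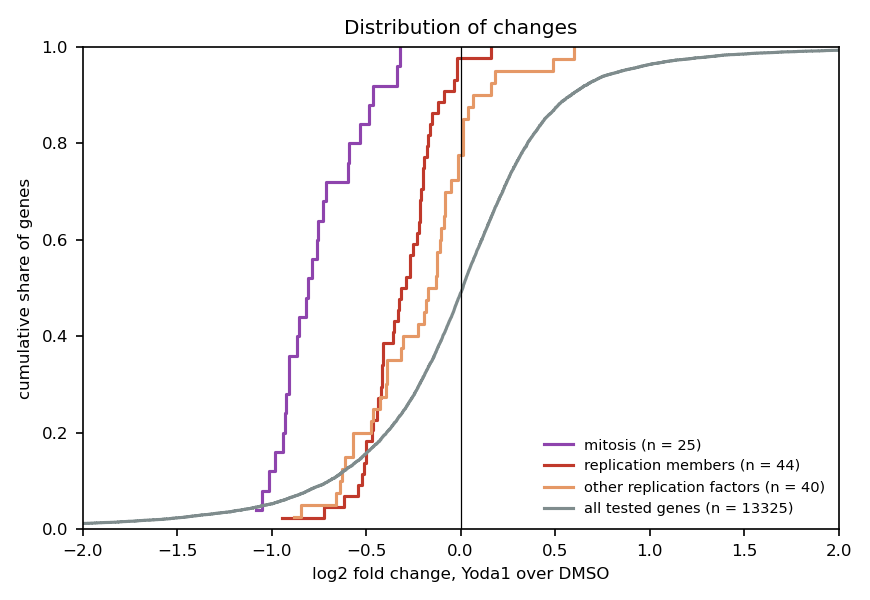
Cumulative share of genes by log2 fold change of Yoda1 over DMSO for 25 mitosis genes, the 44 replication genes, 40 other replication factors and all 13325 tested genes. The replication curve (median -0.30) is steep and lies between the mitosis curve (median -0.81) and that of all genes (median 0.011).

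Mitosis genes lay lower than the replication genes in the plot of cumulative shares. Of 25 tested, 14 were past the threshold lower, against 0.923% of all genes tested, and 0 were higher. The median was -0.81, and the values ran from -1.08 to -0.32. Plk1 (-1.01, SE 0.10) and the cyclin gene Ccnb1 (-0.98, SE 0.10) were among the 14. The share of all counts in these 25 genes was 0.292, 0.277 and 0.267% in Yoda1 4, 5 and 6, against 0.471, 0.499 and 0.493% in DMSO 1, 2 and 3. Only Pola1 of the 44 replication genes lay below the mitosis median. The mitosis count was 2 without DMSO 1, 2 without DMSO 2, 0 without DMSO 3 and 3 without Yoda1 5.

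Exon length moved with the differences between Yoda1 libraries. Across the 44 genes, Spearman's rho between exon length and a library's log2 deviation from its own group mean was 0.30 in Yoda1 4 and -0.35 in Yoda1 6, and across 13156 tested genes with a length it was 0.27 and -0.33. Longer transcripts were thus higher in Yoda1 4 and lower in Yoda1 6 over the whole table. The log2 fold change had a rho of -0.33 with exon length across the 44 genes and 0.077 across all genes. These are correlations across genes of the same 6 libraries, genes are not independent replicates, and the part of this pattern in the results was not tested. Without Yoda1 6 the median log2 fold change of the 44 genes was -0.34, and without Yoda1 4 it was -0.36.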

How the data were processed

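Bulk RNA-seq of 3 Yoda1 and 3 DMSO libraries of mouse lung ILC2s was analysed; 10 ng of RNA went into each library per the labels' protocols. The authors deposited 1 table of expected counts, that is read counts estimated for each gene, which can be fractional. Per the submitters' processing notes the build was mm10; the aligner, counting method, strand setting and annotation were not given in the sources used here. Between 57.1 and 66.5% of a library's values were whole within 0.001, and counts were rounded before any test. Sample labels were followed for groups; the design text and the table's treatment column call the control PBS where the labels say DMSO. The labels share a number between Yoda1 4 and Yoda1 5 (21) and between DMSO 2 and DMSO 3 (19), and carry a suffix of 0 for DMSO 1 and DMSO 2 and of 45 to 48 for the others; their meaning is not given. A chi-square test of counts gave 18.1 to 47.9 per degree of freedom for pairs within a group, more than sampling noise gives.

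The test was edgeR 4.0.16 in R 4.3.3 (TMM factors, filterByExpr with a minimum count of 10 and total of 15, glmQLFit, glmQLFTest, no covariate), fitted on the whole table with Benjamini-Hochberg adjustment over 13325 genes and a threshold of 0.05. The SE is the log2 fold change over the square root of F. CPM are scaled by TMM over tested genes, except marker values, which are of all counts. Exon lengths and positions came from GENCODE M21 on GRCm38, and a gene's exon length is that of the joined exons of its annotated transcripts. Promoters came from RefSeq on GRCm38.p6 (250 bases before and 50 after the start). Of the 44 members, 12 share exon bases with an opposite-strand gene of the table, and 3 share over 50% of theirs. As alternatives, DESeq2 1.42.0, limma 3.58.1 voom, other scaling factors, other filters, a term for the label suffix, summed libraries with a shared number, that number as a random effect, DMSO 1 alone, and each library left out in turn were run. The members and lists were chosen with earlier results of these data known, so no list was tested. All 44 members are named; of each other list, up to 3 genes with the smallest p among those called, the 2 smallest where none was called, and at most 2 mitosis genes. Marker lists with no call are given by their sums, and Il5, Scgb1a1, Thy1, Eomes and Tbx21 were named after their values were seen.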

Additional observations from a re-analysis of the deposited data

How the results depend on the processing

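The median log2 fold change of the 44 replication genes stayed between -0.36 and -0.27 in all 17 alternatives, and 40 to 43 of the 44 were negative. No replication gene was called higher in any alternative. The number called lower, 1 with edgeR's quasi-likelihood test, was 13 with DESeq2, 7 with a filter of 10 CPM in 3 libraries, 3 with a random effect of the label number, 2 with limma voom, and 0 with no filter, with the label suffix as a term, with summed libraries, and with DMSO 1 alone against the 3 Yoda1 libraries. It was 0 to 1 with each library left out in turn; without Yoda1 4 the gene called was Dnmt1, and without Yoda1 6 it was Lig1. The share of all genes tested that was called lower changed as well. It was 0.923% with edgeR's quasi-likelihood test, 3.39% with DESeq2 and 3.4% with the filter of 10 CPM. With the random effect it was 1.6%, with voom 1.34% and with no filter 0.473%. Lig1 was called in 8 of the 17 alternatives. The cause of these changes was not tested, beyond the smaller number of libraries in the fits that drop or sum them and the 8518 genes left by the stricter filter. DMSO 1 alone is assumed to vary like the Yoda1 libraries, and the fit with summed libraries holds 2 in each group. The suffix term sets DMSO 1 and DMSO 2, with suffix 0, apart from all other libraries. In that fit the treatment difference therefore rests on DMSO 3 alone against the Yoda1 libraries. The estimated correlation of libraries with a shared label number was -0.062.

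Over the whole table, 123 genes were lower and 76 higher. These counts were 452 and 414 with DESeq2, 290 and 158 with the stricter filter, 213 and 151 with the random effect, 179 and 121 with voom, 83 and 50 with no filter, 1 and 2 with the suffix term, 0 and 1 with summed libraries, and 0 and 0 with DMSO 1 alone. They ran from 5 to 146 and from 4 to 74 with a library left out.

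Members near 0 changed sign in some settings. With voom, summed libraries and the random effect, Gins4 was at 0.0066, 0.023 and 0.0034, and Pold3 at 0.047, 0.038 and 0.044. Prim1 was at 0.029 with summed libraries. With DMSO 1 alone, Mcm10 was at 0.32, Prim1 at 0.073 and Rpa1 at 0.082. With a library left out, the log2 fold change ran from -0.34 to 0.042 for Mcm10, -0.11 to 0.069 for Gins4, -0.093 to 0.029 for Prim1, -0.20 to 0.16 for Pold3, -0.16 to 0.30 for Rfc3, -0.24 to 0.021 for Rpa1 and -0.46 to 0.0064 for Timeless.

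No paired analysis was possible because DMSO libraries carry the numbers 1 to 3 and Yoda1 libraries 4 to 6, so the groups share no replicate number. A count of 0 allows up to 0.0949 to 0.211 CPM (3 counts, counting error only), and the lowest count of any of the 44 in a library was 255.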
